A study of Rattus norvegicus with 6 samples.

Results

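The genes described here are 10 genes of the ATF4 stress response and of serine synthesis, Atf4, Ddit3, Asns, Trib3, Chac1, Atf5, Sesn2, Psat1, Phgdh and Shmt2. They were chosen by symbol, and each symbol matched 1 row of the 12121 genes in the count tables. RNA-seq was carried out on 3 libraries of C6-AQP1 cells, labelled as overexpressing Aqp1, and on 3 libraries of C6 control cells. C6 is an established rat glioma line from a chemically induced brain tumour, and AQP1 forms a water channel in cell membranes. All cells were grown in serum-containing DMEM, and AQP1 was introduced with a pCDH vector that drives it from the CMV promoter and also carries GFP and a puromycin resistance gene. The sources do not say whether the control libraries came from cells with the empty vector, or whether C6-AQP1 is a single clone. No source states that the libraries within a group were made from different cultures, and all p-values reflect only the variation among these libraries, which could be technical.

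ATF4 is a bZIP transcription factor whose mRNA is translated when the initiation factor eIF2 is phosphorylated, which happens on amino acid shortage, endoplasmic reticulum stress, haem shortage or viral RNA. Because of this translational step, the level of Atf4 mRNA is not a measure of ATF4 protein. ATF4 binds, often with C/EBP family partners, to composite sites known as C/EBP-ATF response elements and switches on genes for amino acid uptake and synthesis, and, under lasting stress, genes linked to cell death. Serine is made from a glycolytic intermediate by PHGDH, PSAT1 and PSPH in turn, and mitochondrial SHMT2 then converts it to glycine and a one-carbon unit.

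The promoters of Chac1 and Trib3 are shown because, of the 10 genes, only these held the core letters of the C/EBP-ATF response element, and because the mRNAs went in opposite directions between the groups. RefSeq promoters of the GRCr8 assembly, each with 250 bases before and 50 from the gene start on, were matched by symbol for all 10 genes. The Chac1 promoter lies at chr3:126795881-126796180 on the plus strand and the Trib3 promoter at chr3:161275484-161275783 on the minus strand, and both are printed 5′ to 3′ on the strand of the gene with the match in capitals.
Chac1: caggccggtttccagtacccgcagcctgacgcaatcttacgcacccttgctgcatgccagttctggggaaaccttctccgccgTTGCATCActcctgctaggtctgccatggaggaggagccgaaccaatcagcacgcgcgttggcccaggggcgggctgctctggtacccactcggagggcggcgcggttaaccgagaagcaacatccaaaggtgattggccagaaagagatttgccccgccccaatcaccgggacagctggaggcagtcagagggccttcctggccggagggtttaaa
Trib3: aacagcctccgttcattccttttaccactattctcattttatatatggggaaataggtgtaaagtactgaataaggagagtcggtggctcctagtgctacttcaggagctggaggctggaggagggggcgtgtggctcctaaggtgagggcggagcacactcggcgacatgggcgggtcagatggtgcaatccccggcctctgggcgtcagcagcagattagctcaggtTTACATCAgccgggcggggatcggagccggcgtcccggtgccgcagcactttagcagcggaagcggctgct
The motif searched was TGATGNAA on both strands. It was found as TTGCATCA from -167 to -160 in Chac1 and as TTACATCA from -21 to -14 in Trib3, both on the opposite strand. Of all 33469 promoters of this length, 3.98% held it, against 2 of the 10 genes described here. Among tested genes, the motif was in 2.32% of promoters of genes that rose and in 1.47% of promoters of genes that fell, beside 2.17% for genes not called. The letters CACGTG, an E-box that is its own reverse complement, were found in Atf4 from -82 to -77 and in none of the other promoters of the group, against 6.42% of all promoters. Among tested genes it was in 9.61% of promoters of genes that rose, 10.4% of those that fell and 10.1% of those not called, so 1 of 10 is near the share of tested genes. A match describes letters in the window and does not show that a factor binds there. The absence of a match does not show that a gene lacks such an element, since only exact letters in this window were searched.

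Library totals lay between 19054251 and 52725877 counts, with replicate 1 the shallowest in each group. Values are given as normalized CPM, which are counts scaled to library size by the TMM method. Aqp1 had 1058 ± 5.81 normalized CPM in C6-AQP1 and 349 ± 2.48 in C6 control cells (SD, n = 3). All 10 glial and glioma markers had a row, with summed levels from 8621 to 8962 normalized CPM in C6-AQP1 and from 6115 to 6279 in C6 control libraries. The sum covers unlike changes, and the following were named after their values were seen. Gfap had a mean of 167 normalized CPM in C6-AQP1 and 14.04 in control cells, Olig1 37.5 against 5.75, and Cspg4 1000 against 955. None of the 6 markers of microglia or macrophages had a row. Of the endothelial markers only Tek had one, from 7.94 to 8.55 against 2.19 to 3.14 normalized CPM. For fibroblasts 2 of 5 markers had a row, with sums from 45.1 to 50.6 against 14.04 to 15.4, and for neurons 3 of 5, with sums from 257 to 263 against 84.9 to 88.3. Map2 made up most of the neuron sum, with means of 254 against 81.8. Defining genes such as Pecam1, Dcn and Rbfox3 had no row, and the part of these markers in the results below was not tested.

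The 10 genes did not move as 1 group. The transcription factor genes Atf4 and Ddit3 and the glutathione-degrading Chac1 were higher in C6-AQP1 cells. The serine synthesis genes Phgdh and Psat1, and Shmt2, which uses serine, were modestly lower, and Trib3 was 3.02-fold lower. A gene was called, as risen or fallen, at an adjusted p under 0.05 in the quasi-likelihood test of edgeR. By this rule 3 rose, 4 fell and 3 (Asns, Atf5 and Sesn2) were not called. Of all 12121 genes, 81.5% were called, 40.8% as risen and 40.7% as fallen, so these shares are near the background and say little about the group as such. Only Trib3 was a DEG, defined by an adjusted p under 0.05 and a change of more than 2-fold. Of all genes 14.1% were DEGs, 9.74% higher and 4.35% lower. The log2 fold change of C6-AQP1 over C6 control (log2FC) had a median of -0.066 over the 10 genes and of 0.001 over all tested genes. The libraries of the groups did not overlap for 8 of the 10 genes, with 3 higher and 5 lower in C6-AQP1, beside 82.5% of all genes, 41.3% higher and 41.3% lower. In bulk RNA, fewer cells with a transcript and less of it per cell cannot be told apart.

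**Figure D1:**
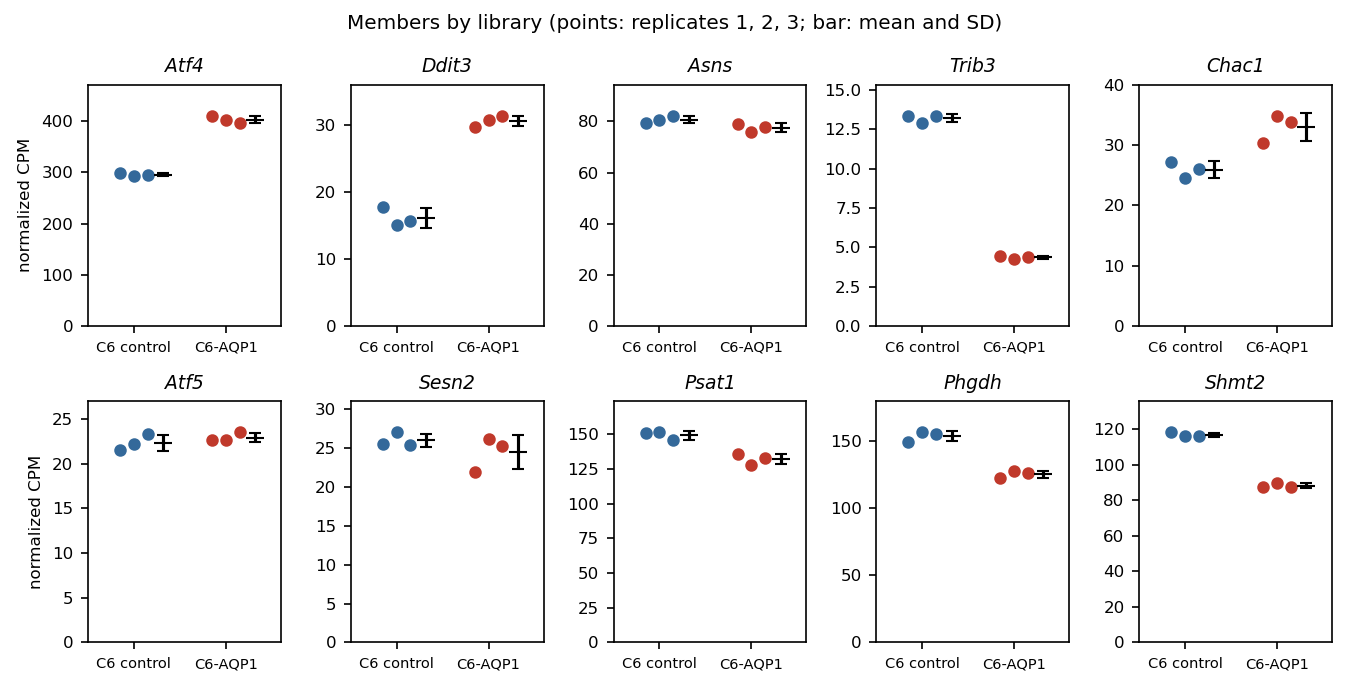
Normalized CPM of each of the 10 genes on a linear axis from 0. Points are single libraries, and black bars show the group mean with its SD (n = 3). Trib3 went from a mean of 13.2 to 4.37 normalized CPM, while the libraries of Atf5 and Sesn2 overlapped.

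Atf4 had 410.3, 402 and 397 normalized CPM in C6-AQP1 replicates 1 to 3 and 299, 293 and 296 in the C6 control replicates. The groups did not overlap. The log2FC was 0.45 ± 0.02 (SE, adjusted p = 9.2e-15 by edgeR), a 1.36-fold difference that was greater than the spread within either group. Of all tested genes, 74.2% had a lower log2FC.

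Ddit3 encodes CHOP, a bZIP factor downstream of ATF4 that is linked to cell death under endoplasmic reticulum stress. It had 29.7, 30.7 and 31.3 normalized CPM in C6-AQP1 libraries and 17.8, 15 and 15.6 in control libraries. The groups were far apart, although control replicate 1 was higher than the other controls. Its log2FC was 0.95 ± 0.06 (SE, adjusted p = 2.1e-12 by edgeR), just under the 2-fold limit. It lay barely past that limit with library totals only, and the log2FC was 1.01 without control replicate 1 and 1.02 without both replicate 1 libraries. In the RefSeq table of GRCr8, Ddit3 overlaps Mars1, the methionyl-tRNA synthetase gene, by 62 bases, and the predicted gene LOC134479709, which has no row, by 3930 bases. Mars, the name of Mars1 in the count tables, had 146 ± 1.5 normalized CPM in C6-AQP1 and 149 ± 2.63 in control cells (SD, n = 3), a log2FC of -0.029 (adjusted p = 0.28 by edgeR).

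Atf5, a close relative of Atf4 that takes part in mitochondrial stress responses, had 22.6, 22.6 and 23.5 normalized CPM in C6-AQP1 libraries. The control libraries had 21.5, 22.2 and 23.3, within much the same range. Atf5 was not called, with a log2FC of 0.032 (adjusted p = 0.58 by edgeR), and its 95% interval ran from -0.078 to 0.14. Atf5 overlaps the genes Nup62 and Il4i1 in GRCr8 by 2080 and 2072 bases, so reads of these genes may be hard to separate. Nup62, a nuclear pore gene, had 111 ± 4.04 normalized CPM in C6-AQP1 and 174 ± 2.60 in control cells (SD, n = 3), a log2FC of -0.65 (adjusted p = 2.2e-15 by edgeR), and its part in the Atf5 value was not tested.

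Trib3 encodes a pseudokinase that ATF4 and CHOP induce and that in turn restrains ATF4 activity. It had 4.46, 4.26 and 4.40 normalized CPM in C6-AQP1 libraries and 13.3, 12.9 and 13.3 in control libraries. All 3 C6-AQP1 libraries lay at about the same low level, well below the controls, while the mRNAs of both inducers were higher. Trib3 had a log2FC of -1.59 ± 0.08 (SE, adjusted p = 7.3e-14 by edgeR), and only 1.29% of all genes had a lower one. The lowest count behind these values was 87, in C6-AQP1 replicate 1.

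Chac1, an enzyme that breaks down glutathione, went the other way. Its libraries had 30.4, 34.9 and 33.8 normalized CPM in C6-AQP1 and 27.3, 24.5 and 26.0 in C6 control cells. The groups did not overlap, although the spread within a group was wider than for Atf4 or Trib3. Chac1 had a log2FC of 0.37 ± 0.05 (SE, adjusted p = 1.6e-06 by edgeR).

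Sesn2 encodes sestrin 2, a leucine-binding inhibitor of mTORC1. Its levels were 22.0, 26.2 and 25.3 normalized CPM in C6-AQP1 libraries and 25.5, 27.0 and 25.4 in control libraries. The groups overlapped, and the lowest value was that of the shallow C6-AQP1 replicate 1. Sesn2 was not called, with a log2FC of -0.072 (adjusted p = 0.25 by edgeR) and a 95% interval from -0.19 to 0.047. In GRCr8 it overlaps the long non-coding RNA gene LOC134487007, which has no row, by 590 bases.

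Asns, asparagine synthetase, is among the best known targets of ATF4. It had 79.2, 76.0 and 77.7 normalized CPM in C6-AQP1 libraries and 79.5, 80.4 and 82.1 in control libraries. Each C6-AQP1 library was below each control library, but the highest of the former and the lowest of the latter were nearly equal. Asns was not called, with a log2FC of -0.060 (adjusted p = 0.068 by edgeR) and a 95% interval from -0.12 to 0.0018. It passed without C6-AQP1 replicate 1 (log2FC -0.073, adjusted p = 0.032 by edgeR), and over all 14 alternatives the adjusted p lay between 0.022 and 0.85. Any difference in Asns was therefore small, and its call rested on the setting.

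**Figure D2:**
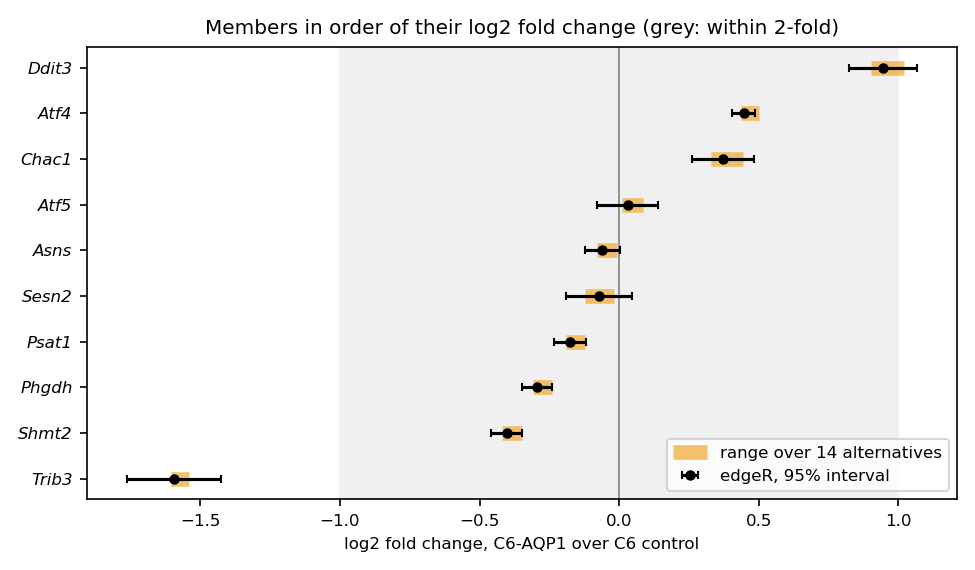
Log2 fold changes of the 10 genes, C6-AQP1 over C6 control, in order of size. Black points and bars are the edgeR estimates with their 95% intervals, orange bars give the range over 14 alternative settings, and the grey band marks changes within 2-fold. Only Trib3, at -1.59, lies outside the band, and Ddit3, at 0.95, lies at its edge.

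The serine synthesis genes Phgdh and Psat1, and Shmt2, which uses serine, were all lower in C6-AQP1 cells, by 1.13- to 1.32-fold. Phgdh, the first enzyme of the route, had 123, 128 and 126 normalized CPM in C6-AQP1 libraries and 149.7, 157 and 156 in control libraries. The groups were clearly separate, and the log2FC was -0.29 ± 0.03 (SE, adjusted p = 1.1e-09 by edgeR). Psat1, the aminotransferase of the second step, had 136, 128 and 133 normalized CPM in C6-AQP1 and 151, 151 and 146 in control libraries. Its libraries did not overlap either, and its log2FC of -0.18 ± 0.03 (SE, adjusted p = 3.8e-06 by edgeR) was the smallest among the 7 called genes. Shmt2, the mitochondrial serine hydroxymethyltransferase, had 87.5, 90.0 and 87.6 normalized CPM in C6-AQP1 libraries. In control libraries it had 118, 117 and 116. The groups were tight and far apart, with a log2FC of -0.40 ± 0.03 (SE, adjusted p = 7.6e-12 by edgeR). RefSeq names 6 pseudogenes of Phgdh and 1 each of Psat1 and Shmt2, which may share reads with these genes, so their levels are less certain. Shmt2 also overlaps Ndufa4l2, which had no row, by 50 bases in GRCr8.

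Psph and Mthfd2 follow on in the same route and were named after their values were seen. Psph, the phosphatase of the last step to serine, had 30.0 ± 1.12 normalized CPM in C6-AQP1 and 44.1 ± 2.03 in control cells (SD, n = 3), a log2FC of -0.55 (adjusted p = 2.4e-10 by edgeR). Mthfd2, which oxidizes the one-carbon unit in mitochondria and is an ATF4 target, had 66.2 ± 2.18 against 102.8 ± 1.39 normalized CPM (SD, n = 3), a log2FC of -0.64. Thus all 3 enzymes from the glycolytic intermediate to serine were lower at the mRNA level.

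In a list of 13 measured genes of serine, glycine and one-carbon metabolism, which did not include Phgdh, Psat1 and Shmt2, 7 fell, 5 rose and 1 was not called. Their median log2FC was -0.38, beside 0.001 for all genes. Of all genes, 40.8% rose and 40.7% fell, which is the background for the counts of this list and of the later lists. Shmt1, the cytosolic counterpart of Shmt2, had the largest change of the list, from 7.31, 6.57 and 7.41 normalized CPM in control libraries to 1.89, 2.06 and 1.21 in C6-AQP1 libraries. This was a log2FC of -2.06 ± 0.16 (SE, adjusted p = 2.3e-10 by edgeR), so both serine hydroxymethyltransferases were lower. Gcsh, the carrier protein of the glycine cleavage system, fell with a log2FC of -0.82, and Mthfd1, the cytosolic folate enzyme, with -0.71. Of the genes that rose, Amt and Gldc of the glycine cleavage system had log2FC values of 1.59 and 0.92, but both were under 3 normalized CPM. Shmt1 was also under 3 normalized CPM in C6-AQP1 libraries, with counts of 37, 85 and 51. The other genes that rose had log2FC values of at most 0.17. The number that rose was 2 with DESeq2, 3 with a minimum of 50 counts in each library of 1 group, 2 without C6-AQP1 replicate 3 and 3 without control replicate 2.

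**Figure D3:**
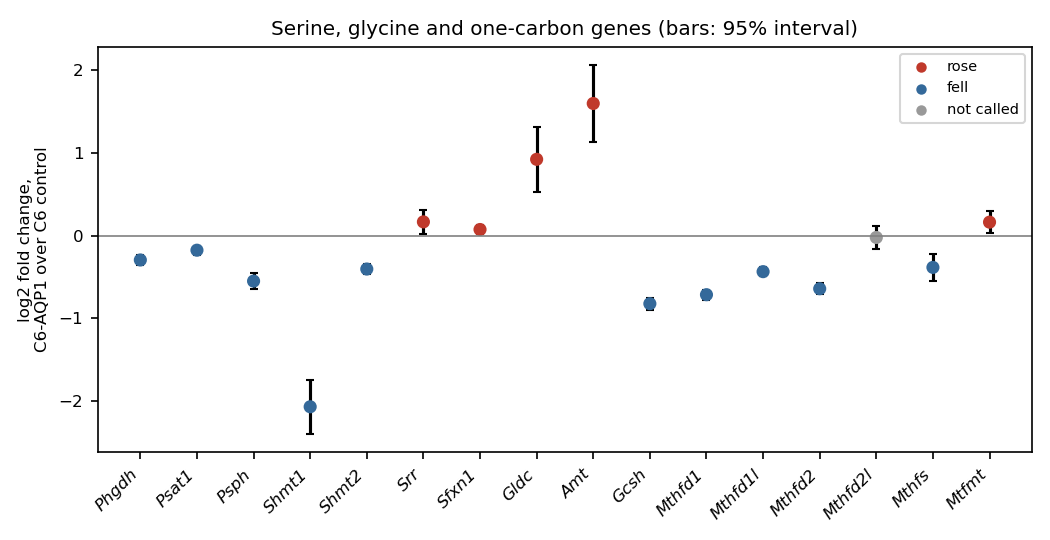
Log2 fold changes of serine, glycine and one-carbon genes, C6-AQP1 over C6 control, with 95% intervals from edgeR. Genes are ordered by their place in metabolism, from Phgdh on the left, and coloured by call. Phgdh, Psat1, Psph, Shmt1 and Shmt2 all lie below 0.

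Ratios of 2 genes within a library do not depend on how libraries are scaled, so each gene was also set against Atf4. The log2 ratio of Trib3 to Atf4 was -6.53 ± 0.03 in C6-AQP1 and -4.49 ± 0.02 in control libraries (SD, n = 3), lower by a difference of -2.04. For Shmt2 the difference was -0.85, for Phgdh -0.74 and for Psat1 -0.62, and the ratios of Sesn2, Asns and Atf5 to Atf4 differed by -0.54, -0.50 and -0.41. Sesn2, Asns and Atf5 were not called themselves, so their differences mostly restate the log2FC of 0.45 of Atf4. Shmt2, Phgdh and Psat1 had log2FC values of -0.40, -0.29 and -0.18 themselves. The change of Atf4 was larger in size than each of these, so their differences in ratio also hold a large part from Atf4. Ddit3 was the only gene whose ratio to Atf4 was higher in every C6-AQP1 library, with a difference of 0.48. For Chac1 the ratios overlapped, at -3.61 ± 0.12 in C6-AQP1 and -3.51 ± 0.06 in control libraries (SD, n = 3). In an exact permutation test, two-sided, 8 of the 9 ratios reached p = 0.1, the smallest that 3 against 3 libraries allows, or 0.112 after Benjamini-Hochberg adjustment over the 9, so no ratio could pass 0.05. The 9 ratios share Atf4 and are not independent of one another.

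**Figure D4:**
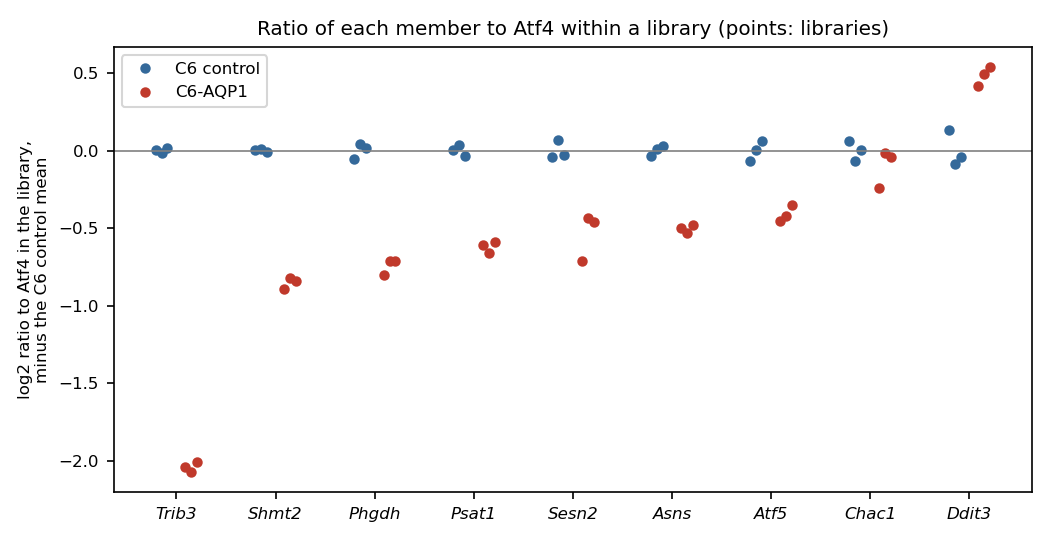
Log2 ratio of each gene to Atf4 in the same library, minus the mean ratio of the C6 control libraries. Each point is a library. Ddit3 lies above the controls, Chac1 among them, and the other 7 genes below, with Trib3 lowest at a difference of -2.04. Sesn2, Asns and Atf5 lie below mostly because Atf4 was higher. For Psat1, Phgdh and Shmt2 the change of Atf4 was also larger in size than their own.

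Upstream of ATF4, kinases that phosphorylate eIF2 and subunits of the phosphatase that reverses it were mostly higher. Of 10 measured genes, 7 rose, 1 fell and 2 were not called, with a median log2FC of 0.22. Eif2ak3, which encodes the endoplasmic reticulum kinase PERK, had 66.3, 73.9 and 67.9 normalized CPM in C6-AQP1 and 49.9, 49.98 and 48.7 in control libraries, a log2FC of 0.49 ± 0.04 (SE, adjusted p = 1.1e-10 by edgeR). The other kinases, named after their values were seen, also rose, with log2FC values of 0.32 for Eif2ak2, 0.12 for Eif2ak1 and 0.11 for Eif2ak4. Ppp1r15b, the constitutive regulatory subunit of the eIF2 phosphatase, rose with a log2FC of 0.60 ± 0.03 (SE, adjusted p = 5.7e-15 by edgeR). The other regulatory subunit gene, Ppp1r15a, named after its value was seen, rose with 0.49 (adjusted p = 5.7e-11 by edgeR). Eif2s1, the phosphorylated subunit itself, was the gene that fell, from 147 ± 1.26 to 82.9 ± 3.0 normalized CPM (SD, n = 3), a log2FC of -0.84. The number that fell was 2 without C6-AQP1 replicate 1 or without control replicate 3. Phosphorylation was not measured, and mRNA levels do not give it.

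Among 8 measured bZIP partners and relatives of ATF4, 6 rose, 1 fell and 1 was not called, with a median log2FC of 0.18. Atf3, a stress-induced repressor that follows ATF4, went from 23.2, 21.0 and 21.0 normalized CPM in control libraries to 56.0, 54.8 and 57.5 in C6-AQP1 libraries. The groups were far apart, with a log2FC of 1.38 ± 0.04 (SE, adjusted p = 1.6e-17 by edgeR). Cebpd, a C/EBP factor of the acute response, and Jdp2, a repressor of the AP-1 family, had log2FC values of 1.02 and 0.89 (adjusted p = 2.2e-14 and 4.5e-09 by edgeR). Outside the naming rule, Nfe2l2, the master factor of the oxidative stress response, was the gene that fell, with a log2FC of -0.43. The number that fell was 2 when both replicate 1 libraries were left out.

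Other target genes of ATF4 went both ways. Of 12 measured, 5 rose, 4 fell and 3 were not called, with a median log2FC of -0.0017. The shares of 41.7% and 33.3% are near the 40.8% and 40.7% of all genes and say little about these targets as such. Ddit4, an mTORC1 inhibitor induced by stress and hypoxia, went from 21.1, 19.6 and 20.9 normalized CPM in control to 69.7, 70.9 and 74.6 in C6-AQP1 libraries, a log2FC of 1.81 ± 0.04 (SE, adjusted p = 6.9e-20 by edgeR). Vegfa and Ndrg1, an angiogenic factor and a stress-response gene, had log2FC values of 1.44 and 1.26. All 3 are also known targets of the hypoxia factor HIF-1. Gdf15, a secreted stress cytokine named after its value was seen, fell as Trib3 did, from 2.94 ± 0.32 to 1.40 ± 0.02 normalized CPM (SD, n = 3), a log2FC of -1.06 (adjusted p = 4.2e-06 by edgeR). Both means were under 3 normalized CPM, and the C6-AQP1 counts were 27, 58 and 60. Also named afterwards, Vldlr and Gpt2 rose with log2FC values of 0.79 and 0.51. Xpot, Ero1a and Sqstm1 fell, with -0.15, -0.14 and -0.094.

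For amino acid transporters under ATF4, 4 of 8 measured genes rose and 2 fell, with a median log2FC of 0.022. These shares were 50% and 25%, beside 40.8% and 40.7% of all genes. Slc6a9, a glycine transporter, rose with a log2FC of 0.63, and the cystine transporter Slc7a11 with 0.38 (adjusted p = 2.2e-12 and 6.1e-08 by edgeR). The glutamine transporter Slc1a5 fell, with a log2FC of -0.31. Of 14 measured rows for other amino acid synthesis genes, 6 rose and 7 fell, or 42.9% and 50%, with a median of -0.32. The proline synthesis genes differed among themselves, since Pycr1 rose with a log2FC of 0.72 while Pycrl fell with -0.71. Glul, glutamine synthetase, rose with 0.66.

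Chaperones and other genes of the ATF6 and IRE1 arms of the unfolded protein response were mostly lower. The genes of both sensors and some others of these arms were higher. Of 20 measured genes, 14 fell and 6 rose, with a median log2FC of -0.42. Sec61b, a subunit of the translocon, Manf, a secreted protective factor, and Creld2, an endoplasmic reticulum chaperone, fell with log2FC values of -0.997, -0.87 and -0.83. The sensor genes Atf6 and Ern1, which encodes IRE1, rose with log2FC values of 0.35 and 0.51 (adjusted p = 2.4e-11 and 1.5e-09 by edgeR), and were named after their values were seen. The remaining genes that rose, also named afterwards, were Dnajb9, Herpud1, Sel1l and Edem1, with log2FC values of 0.51, 0.38, 0.17 and 0.098. Hspa5, which encodes the chaperone BiP and was named after its value was seen, went from 1383 ± 9.36 normalized CPM in control to 1152 ± 7.78 in C6-AQP1 cells (SD, n = 3), a log2FC of -0.26. Thus Ddit3 and Atf3 were higher in the libraries in which Hspa5 and most genes of this list were lower. Of 9 mitochondrial chaperones and proteases, 7 fell and 2 rose, with a median of -0.27. The chaperonin Hspe1 and the protease subunit Clpp had log2FC values of -0.85 and -0.52, and the protease gene Afg3l2 one of 0.39. The number that rose was 1 without C6-AQP1 replicate 3.

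In the list of amino acid sensing upstream of mTORC1, 12 of 15 measured genes rose and 2 fell. The median log2FC was 0.54. This list also holds Ddit4, described above, with Tsc1 and Tsc2, and it mixes inhibitors of mTORC1 with other genes. The counts therefore give no direction of signalling, and mTORC1 activity was not measured. Sesn3, a relative of Sesn2, went from 37.4, 38.4 and 39.7 normalized CPM in control to 114, 115 and 116 in C6-AQP1 libraries. Its log2FC was 1.57 ± 0.03 (SE, adjusted p = 6.5e-21 by edgeR), whereas Sesn2 itself did not pass the test. Sesn1 had 12.4 ± 0.77 against 10.8 ± 0.41 normalized CPM (SD, n = 3), a log2FC of 0.20 (adjusted p = 0.015 by edgeR). This call was lost with DESeq2 and without C6-AQP1 replicate 2 or 3 (adjusted p = 0.059, 0.086 and 0.051, with a range from 0.0027 to 0.086 over all alternatives). Rragd, a Rag GTPase, rose with a log2FC of 1.30.

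Relatives of Trib3 and Chac1 also had values of their own. Trib2, a pseudokinase like Trib3, rose from 45.4 ± 0.80 to 78.2 ± 0.64 normalized CPM (SD, n = 3), a log2FC of 0.78 (adjusted p = 1.6e-15 by edgeR), while Trib1 fell with -0.31. Chac2, the constitutive relative of Chac1, fell with a log2FC of -0.51 (adjusted p = 1.4e-06 by edgeR). In the list of glutathione synthesis and breakdown, 5 of 8 measured genes fell and 2 rose, with a median of -0.32. Gss, glutathione synthetase, and Gsr, glutathione reductase, fell with log2FC values of -1.19 and -0.64. Oplah, which returns 5-oxoproline, a product of glutathione breakdown, to glutamate, rose from 14.03 ± 0.42 to 38.5 ± 1.47 normalized CPM (SD, n = 3), a log2FC of 1.45.

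**Figure D5:**
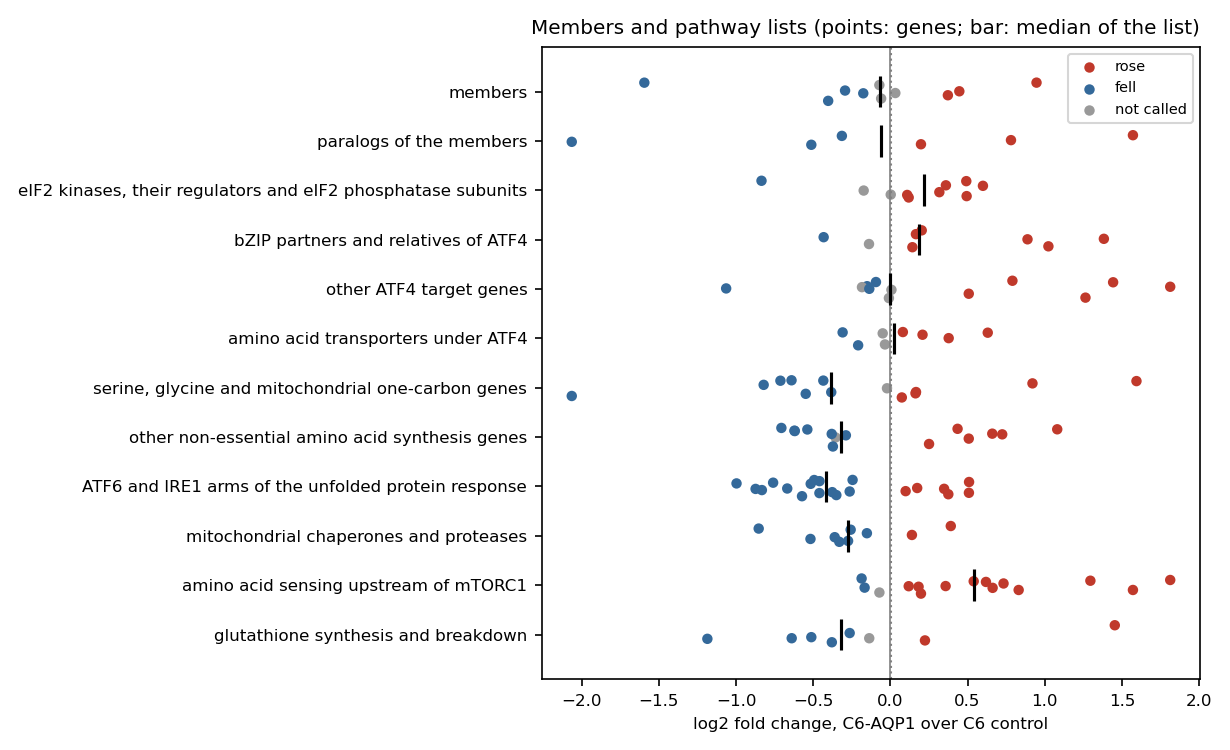
Log2 fold changes of the 10 genes (top line) and of 11 pathway lists, C6-AQP1 over C6 control. Each point is a gene coloured by call, black bars give the median of the list, and the dotted line is the median of all tested genes. The medians are highest for amino acid sensing upstream of mTORC1, at 0.54, and lowest for the ATF6 and IRE1 arms, at -0.42.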

How the data were processed

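Gene expression was measured by RNA-seq of total RNA after cDNA amplification, in 3 libraries per group. By the methods and the processing notes of the submitters, reads were checked with FastQC (0.11.2), trimmed with Trimmomatic (0.36), aligned to rn6 with STAR (2.5.1b) and quantified with RSEM (1.2.29), which divides reads among matching genes. The labels describe single reads and the methods paired-end reads, and whether counting used strand is not stated in either. Expected counts (estimates, not normalized) were deposited by the authors for 12121 genes, the number their TPM filter leaves.

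Counts were rounded, scaled by TMM factors and tested with edgeR 4.0.16 (R 4.3.3, robust quasi-likelihood, C6-AQP1 against C6 control, no covariates), with Benjamini-Hochberg adjustment over all genes. Standard errors came from the log2 fold change and its statistic. Alternatives were RLE, upper-quartile and unscaled totals, DESeq2 1.42.0, limma-voom (limma 3.58.1), at least 50 counts in every library of a group, a replicate block, and leaving out each library or both replicate 1 libraries. The scripts were tested on simulated data. Replicates of a group differed by more than sampling noise (chi-square per degree of freedom from 2.15 to 4.29), so each was counted once. This does not show that they came from different cultures. The common variation between replicates beyond counting noise, as estimated by edgeR, was 2.97%. The 10 genes and the lists were chosen with earlier results of these data known. Named genes are these 10, Aqp1, their paralogs and the 3 largest called changes of each list among genes whose higher group has 50 counts or more per library. Transcript lengths were not used, so levels are not compared between genes. Promoter sequences and gene overlaps came from RefSeq (GRCr8), another assembly than rn6.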

Additional observations from a re-analysis of the deposited data

How the results depend on the processing

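Of the 10 genes, 9 kept their direction and their side of the threshold under all 14 alternatives, and Asns kept its direction. Asns passed the test with limma-voom (log2FC -0.064, adjusted p = 0.049) and without both replicate 1 libraries (-0.081, adjusted p = 0.022), while leaving out 1 library at a time gave -0.073 to -0.038. Ddit3 became a DEG, so that the number of higher DEGs among the 10 went from 0 to 1, with library totals only and without both replicate 1 libraries, and lay between 0 and 1 when 1 library was left out. For serine, glycine and one-carbon genes, the number that rose went from 5 to 2 with DESeq2 and to 3 with the 50-count minimum, which removes low genes, and lay between 2 and 5 with 1 library left out. The eIF2 list had 1 to 2 falls, and the mitochondrial list 1 to 2 rises, with 1 library left out, and the bZIP list had 2 falls without both replicate 1 libraries. The cause was not tested. Unscaled library totals moved the median of all genes by 0.054 on the log2 scale.

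The correlations did not settle whether replicate numbers pair the libraries. The deviations of same-numbered libraries from their group means correlated at 0.126, -0.012 and 0.065 across genes. The value of 0.126, for the shallow replicate 1 libraries, was the highest of all pairs across the groups. C6-AQP1 replicate 2, however, correlated best with control replicate 3, at 0.106. A batch shared by same-numbered libraries was not tested. With the replicate block, 5006 genes rose and 4976 fell, against 4948 and 4930 without it, and 3 of the 10 genes rose and 4 fell in both fits. For Asns the block gave -0.061 (adjusted p = 0.052 from edgeR), on the same side of the threshold.

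Trib3 rests on the fewest counts of the 10 genes, and differences as small as that of Asns are at the limit of what 3 libraries show.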
